A study of Homo sapiens with 24 samples.

Results

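The RNA of 2 pools of sucrose gradient fractions was compared between 293T cells that carry the D146N mutant of DIS3 and 293T cells that carry wild-type (WT) DIS3. The D146N pool was fractions 3 and 4 and the WT pool was fractions 7 and 8, each with 6 libraries, which is 12 of the 24 libraries of the series. These fractions were matched by composition and not by number: the pools were chosen by their measured shares of small noncoding RNAs, in which both are rich. 293T is a human embryonic kidney line. In all groups endogenous DIS3 was knocked down with the hairpin DIS3-sh2 and the cells were rescued with DIS3 WT or with DIS3 D146N, so the WT cells are a rescue line and not untreated 293T. Cytoplasmic RNA was taken from the gradient fractions, ribosomal RNA was depleted, and each fraction of each genotype had 3 libraries. The labels call these biological replicates without naming separate cultures, so p-values measure the spread between these libraries. Whether fraction numbers start at the top or the bottom of the gradient is not given in the labels. Genotype and fraction label cannot be told apart in this comparison, since the libraries labelled D146N and those labelled WT come from different fraction numbers.

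DIS3 carries the catalytic activity of the RNA exosome, a complex that trims and degrades RNA from its 3′ end. It holds an exonuclease domain and a second active site, an endonuclease, in its PIN domain. D146N replaces an aspartate of that endonuclease site. In a sucrose gradient, ribosomes and other RNA and protein particles separate by size and density, so each fraction is a sample of particles and not of the whole cytoplasm. In bulk libraries of this kind, fewer particles or cells that hold an RNA and less RNA in each of them cannot be told apart.

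The values that chose the pools were shares of all counts in a library, and they are given as a description with no test. RPPH1, the RNA of RNase P, which cuts the leader from transfer RNA precursors, took 13.8% to 14.3% of counts in D146N fractions 3,4 with a median of 14.1%. In WT fractions 7,8 it took 11.5% to 13.5% with a median of 13.3%. In the other 12 libraries it took at most 0.610% in D146N fractions 7,8 and at most 0.586% in WT fractions 3,4. RPPH1 was therefore near in level in the 2 matched pools, with all WT libraries below the lowest D146N library. Across the mean levels of the 18907 genes tested, Spearman's rho was 0.979 between D146N fractions 3,4 and WT fractions 7,8. It was 0.889 between D146N fractions 3,4 and WT fractions 3,4, the pool with the same fraction numbers, and 0.991 between D146N fractions 7,8 and WT fractions 3,4. The fraction numbers of the 2 genotypes thus run opposite in composition. These values describe genes within pooled libraries, and genes are not independent replicates.

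The other abundant small RNAs were less evenly matched. RN7SK, a brake on elongation by RNA polymerase II, took 7.04% to 7.15% (median 7.10%) of counts in D146N fractions 3,4 and 3.45% to 4.49% (median 4.31%) in WT fractions 7,8. RMRP, the RNA of RNase MRP, which cuts ribosomal RNA precursors, took 1.62% to 2.01% (median 1.79%) in D146N fractions 3,4 and 3.03% to 3.85% (median 3.24%) in WT fractions 7,8. Neither range overlapped with that of the other pool, and the 2 RNAs lay in opposite directions. The 7SL RNAs, the RNA core of the signal recognition particle, took 24.6% to 26.2% (median 25.8%) in D146N fractions 3,4 and 23.1% to 25.9% (median 24.7%) in WT fractions 7,8, with overlap. SCARNA2, a Cajal body RNA, took 0.159% to 0.181% (median 0.171%) in D146N fractions 3,4 and 0.0854% to 0.116% (median 0.0891%) in WT fractions 7,8. In the other fractions SCARNA2 reached 3.62% in D146N fractions 7,8 and 2.60% in WT fractions 3,4, so both matched pools were low in it.

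**Figure D1:**
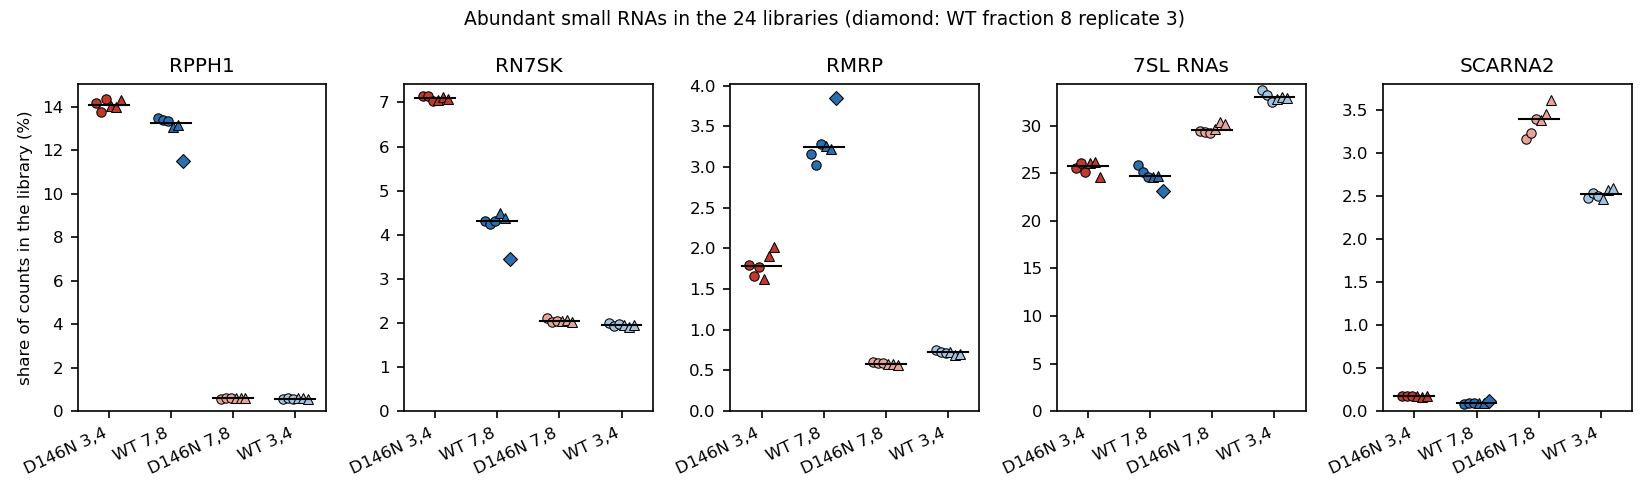
Share of counts (%, linear axis from 0) taken by 5 small RNAs or RNA groups in each of the 24 libraries, with 1 point per library and a line at the median of each pool of 6. Circles are fractions 3 and 7, triangles are fractions 4 and 8, and the diamond is WT fraction 8 replicate 3. RPPH1 stands at a median of 14.1% in D146N 3,4 and 13.3% in WT 7,8 and below 1% in the other pools, whereas RN7SK and RMRP do not overlap between the 2 matched pools.

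One library stood apart. WT fraction 8 replicate 3 had the lowest RPPH1 share of the 6 WT libraries (11.5%) and the highest RMRP share (3.85%). Squared differences in counts between 2 libraries of the same WT fraction were set against sampling noise on library totals, at the median gene. They were 13.0 to 13.6 times the value expected from sampling noise when this library was in the pair, and 1.41 to 2.38 times otherwise. Among 6213 genes at least 4-fold apart between WT fraction 8 and WT fractions 3,4, it lay between them in 85.4%, at a median of 2.94% of the way towards WT fractions 3,4. Its TMM scaling factor was 0.531, against at most 0.375 in the other WT libraries of the pool and 0.355 to 0.373 in D146N fractions 3,4. Results were therefore also computed without it. The 12 libraries held 23.8 to 28.1 M counts in D146N fractions 3,4 and 30.4 to 33.0 M in WT fractions 7,8.

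Smaller noncoding RNAs are also described without a test, because composition chose the pools. SCARNA16 showed one of the largest gaps. It is a guide RNA of the H/ACA class, which directs pseudouridylation and ends a few bases after a conserved ACA box. It had 21.4 to 25.2 CPM (counts scaled to the library total), median 22.6, in D146N fractions 3,4 and 90.1 to 122.8 CPM, median 118, in WT fractions 7,8. The 2 pools did not overlap, and the ratio of the means was 0.200, or 0.191 without WT fraction 8 replicate 3. In the remaining pools its median was below 1 CPM, at 0.586 in D146N fractions 7,8 and 0.903 in WT fractions 3,4. The RNA is annotated at chr17:77089307-77089493 (187 bases), and 77 of the 81 bases of the annotated hairpin of MIR6516 lie inside it. MIR6516 had 99.1% of the counts of SCARNA16 over the 24 libraries, so the 2 rows are not separate measurements. The hairpin (RefSeq, GRCh38.p14, chr17:77089417-77089497, plus strand) is shown because it holds the end of the guide RNA, and capitals mark the ACA triplet at 77089488 to 77089490, after which SCARNA16 has 3 more bases:
MIR6516: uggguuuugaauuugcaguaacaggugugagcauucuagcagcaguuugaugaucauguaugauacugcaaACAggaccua

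Other guide RNAs lay on both sides, with more of them lower. Of 76 box H/ACA RNAs that passed a filter on low counts, 22 were lower in D146N fractions 3,4 with no overlap after TMM scaling (all genes 4.82%). By the same measure 2 were higher (all genes 7.79%). Of 86 box C/D RNAs 13 were lower and 2 higher, and of 15 Cajal body RNAs 5 were lower and 3 higher. SCARNA5 had 135 to 160 CPM (median 143) in D146N fractions 3,4 and 338 to 416 CPM (median 395) in WT fractions 7,8, a ratio of means of 0.372. SNORA12, an H/ACA RNA, had 22.01 to 34.2 CPM (median 26.4) in D146N fractions 3,4 and 65.5 to 89.2 CPM (median 79.7) in WT fractions 7,8, a ratio of 0.335. Neither pair of ranges overlapped. SCARNA9 lay the other way, with 90.1 to 96.6 CPM (median 93.8) in D146N fractions 3,4 and 35.8 to 70.1 CPM (median 45.4) in WT fractions 7,8. SNORA23, also of the H/ACA class, had 9.08 to 11.5 CPM (median 10.6) in D146N fractions 3,4 and 3.74 to 5.43 CPM (median 4.14) in WT fractions 7,8. Both were higher in every D146N library than in any WT library. The box C/D RNA SNORD3A, the U3 RNA of ribosomal RNA processing, had medians of 705 CPM in D146N fractions 3,4 and 516 CPM in WT fractions 7,8, and its ranges overlapped through WT fraction 8 replicate 3 at 642 CPM.

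The spliceosomal RNAs named here and the Y and vault RNAs differed in opposite directions. Of 39 spliceosomal RNA rows, 7 were lower in D146N fractions 3,4 with no overlap after TMM scaling (all genes 4.82%). By the same measure 3 were higher (all genes 7.79%). Of 6 Y and vault RNAs, 4 were higher and none lower. The minor spliceosome RNA RNU11 had 5.85 to 7.85 CPM (median 6.94) in D146N fractions 3,4 and 10.4 to 15.4 CPM (median 14.1) in WT fractions 7,8. RNVU1-15, a variant U1 gene, had 8.37 to 10.1 CPM (median 9.29) in D146N fractions 3,4 and 17.6 to 19.3 CPM (median 18.4) in WT fractions 7,8. The ratios of means were 0.504 and 0.505, and neither RNA overlapped between pools. U1 variant genes are near-identical copies, so reads could be split among them. VTRNA1-3, a vault RNA, had 14.0 to 16.97 CPM (median 15.8) in D146N fractions 3,4 and 5.30 to 7.08 CPM (median 6.60) in WT fractions 7,8, a ratio of 2.41. RNY1, a Y RNA bound by the Ro60 protein, had 172 reads in all D146N 3,4 libraries together and 30 reads in all WT 7,8 libraries together, a CPM ratio of 7.10. RNY4 rested on 39.8 reads against 3 reads, too few for a fold to be read from it.

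All genes that passed a filter on low counts were fitted together over the 24 libraries with edgeR's quasi-likelihood test, with Benjamini-Hochberg adjustment over 18907 genes and a threshold of 0.05 on the adjusted p. Results are read only for protein-coding and long noncoding genes and mitochondrial mRNAs. Fold changes are D146N over WT on the log2 scale after TMM scaling, which sets them against the typical gene. In D146N fractions 3,4 against WT fractions 7,8, 5524 genes were called (29.2%), of which 3239 were higher (17.1%) and 2285 lower (12.1%). These counts include 458 rows of small RNAs and mitochondrial ribosomal and transfer RNAs, the kind of RNA that chose the pools, of which 59 were higher and 116 lower, and the other 18449 rows held 3180 higher and 2169 lower genes. At least a 2-fold change was met by 450 higher (2.38%) and 218 lower (1.15%) genes. Irrespective of the test, every library of one pool lay above every library of the other, in CPM after TMM scaling, in 1472 genes that were higher (7.79%) and 912 that were lower (4.82%) in D146N fractions 3,4. Without WT fraction 8 replicate 3, 5659 genes were called (28.9%), 3267 higher (16.7%) and 2392 lower (12.2%), of 19605 tested. The split between higher and lower depends on the scaling and the fit: with library totals 2270 were higher and 2839 lower, with median-of-ratios factors 2620 and 2968, with DESeq2 2636 and 3185, and with the 12 libraries fitted alone 2573 and 2592. The median over all genes tested was 0.01 after TMM scaling and -0.09 with library totals. Within the pools, fraction 4 against 3 of D146N and fraction 8 against 7 of WT gave no called gene in edgeR, with 765 and 1727 genes at an unadjusted p under 0.05. DESeq2 called 0 and 11 genes there, and limma voom called 0 in each.

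DIS3 itself (ENSG00000083520.15, chr13:72752169-72781900) was higher in the D146N pool. It had 7.79 to 9.63 CPM with a median of 8.96 in D146N fractions 3,4 and 4.54 to 6.28 CPM with a median of 5.35 in WT fractions 7,8. The 2 ranges did not overlap, and the log2 fold change was 0.81 (SE 0.09, adjusted p 4.64e-09). In the other fractions it was more abundant and did not pass the test, at medians of 98.7 CPM in D146N fractions 7,8 and 94.7 CPM in WT fractions 3,4 (log2 fold change -0.11, adjusted p 0.337). Reads of the endogenous gene and of the rescue construct are not told apart in a count per gene, and the DIS3 gene overlaps BORA in the annotation.

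The relatives of DIS3 and the exosome showed no common direction. DIS3L, the cytoplasmic exonuclease of the exosome, had medians of 2.79 CPM in D146N fractions 3,4 and 2.16 CPM in WT fractions 7,8 and rose by 0.53 on the log2 scale (adjusted p 0.000298). DIS3L2, which degrades uridylated RNA without the exosome, had medians of 1.91 CPM in D146N fractions 3,4 and 2.94 CPM in WT fractions 7,8 (-0.48, adjusted p 0.0131). That call was lost without D146N fraction 4 replicate 1, where the value was -0.35. Of 10 exosome subunits tested, 2 rose (all genes 17.1%) and 2 fell (all genes 12.1%), with a median of 0.01. EXOSC6 (0.54) and EXOSC9 (0.41), both of the ring of the exosome, were the 2 that rose, and EXOSC8 (-0.22), also of the ring, and the cap subunit EXOSC1 (-0.25) fell. Of 20 exosome cofactors, 3 rose and 2 fell, near the shares of all genes, or 3 rose and 4 fell without WT fraction 8 replicate 3. NCBP1, the large subunit of the nuclear cap binding complex, rose by 0.57 (adjusted p 2.06e-05), and C1D, a nuclear exosome cofactor, fell by 1.21 (adjusted p 5.37e-08). C1D had medians of 2.58 CPM in D146N fractions 3,4 and 5.57 CPM in WT fractions 7,8, with WT fraction 8 replicate 3 at 14.3 CPM, and fell by 1.01 without that library.

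Among genes of at least 10 CPM on average that were higher in D146N fractions 3,4, the largest fold changes were those of CENPF, DIAPH1 and TPR. CENPF (ENSG00000117724.14, chr1:214603195-214664571), a large coiled-coil protein of the kinetochore, had 25.7 to 30.5 CPM (median 29.0) in D146N fractions 3,4 and 5.58 to 6.33 CPM (median 6.02) in WT fractions 7,8. The lowest D146N library was over 4 times the highest WT library, and the log2 fold change was 2.35 (SE 0.07, adjusted p 2.31e-23). DIAPH1 (chr5:141515021-141619000), a formin that nucleates actin filaments, had 28.5 to 33.2 CPM (median 31.3) in D146N fractions 3,4 and 7.77 to 8.80 CPM (median 8.00) in WT fractions 7,8. Its log2 fold change was 2.04 (SE 0.08, adjusted p 4.83e-21). TPR (chr1:186311652-186375253), a filament protein of the nuclear pore basket, had 21.4 to 25.1 CPM (median 22.9) in D146N fractions 3,4 and 5.68 to 7.15 CPM (median 6.50) in WT fractions 7,8. It rose by 1.93 on the log2 scale (SE 0.08, adjusted p 4.28e-20). In CPM, WT fraction 8 replicate 3 lay within the range of the other WT libraries in each of these 3 genes. After TMM scaling it lay below all of them in each, with a factor of 0.531 against at most 0.375.

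The next genes by size follow. SPECC1, a cytoskeletal coiled-coil protein, had a median of 19.5 CPM in D146N fractions 3,4 and 6.04 CPM in WT fractions 7,8 (log2 fold change 1.78). AHNAK (chr11:62433544-62546806), a giant scaffold protein, had 14.2 to 17.6 CPM (median 16.4) in D146N fractions 3,4 and 4.90 to 7.50 CPM (median 5.10) in WT fractions 7,8 (1.67, adjusted p 4.83e-21). The highest WT value of AHNAK was that of WT fraction 8 replicate 3, and the pools did not overlap with it or without it. CTNNB1, beta-catenin of adherens junctions and Wnt signalling, rose, with medians of 21.9 CPM in D146N fractions 3,4 and 8.18 CPM in WT fractions 7,8 (ratio of mean CPM 2.62, adjusted p 2.21e-20). AKAP12, an anchor of protein kinase A, rose by 1.47, with medians of 108 CPM in D146N fractions 3,4 and 42.0 CPM in WT fractions 7,8. SPTAN1, the non-erythroid alpha spectrin, rose by 1.45, and MAP1B, a microtubule-associated protein, rose by 1.41. The mitochondrially encoded MT-ATP6 and MT-ND4L also passed this rule and are described with their group.

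The list of very long mRNAs lay mostly on the same side. Of 38 tested, 32 rose (all genes 17.1%), 1 fell (all genes 12.1%) and 5 did not pass, with a median log2 fold change of 0.68 against 0.01 over all genes. The median was 0.56 with library totals, and 31 rose and 1 fell without WT fraction 8 replicate 3. GOLGB1, the golgin giantin, had 13.7 to 16.3 CPM (median 14.7) in D146N fractions 3,4 and 4.07 to 5.69 CPM (median 4.62) in WT fractions 7,8 (1.76, adjusted p 9.61e-19). FAT1, an atypical cadherin, had medians of 6.65 CPM in D146N fractions 3,4 and 3.02 CPM in WT fractions 7,8 (1.23). The only one that fell was the histone methyltransferase gene KMT2C (-0.21, adjusted p 0.0111), named here because it was alone in its direction. These mRNAs were rare in both matched pools. Together they took 0.0553% to 0.0597% (median 0.0588%) of counts in D146N fractions 3,4 and 0.0330% to 0.0440% (median 0.0361%) in WT fractions 7,8, against medians of 0.639% in D146N fractions 7,8 and 0.811% in WT fractions 3,4. As a class they were thus far below their level in the other fractions, as was CENPF at medians of 257 CPM in D146N fractions 7,8 and 534 CPM in WT fractions 3,4. What part such RNA of the other fractions plays in these fold changes was not tested.

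**Figure D2:**
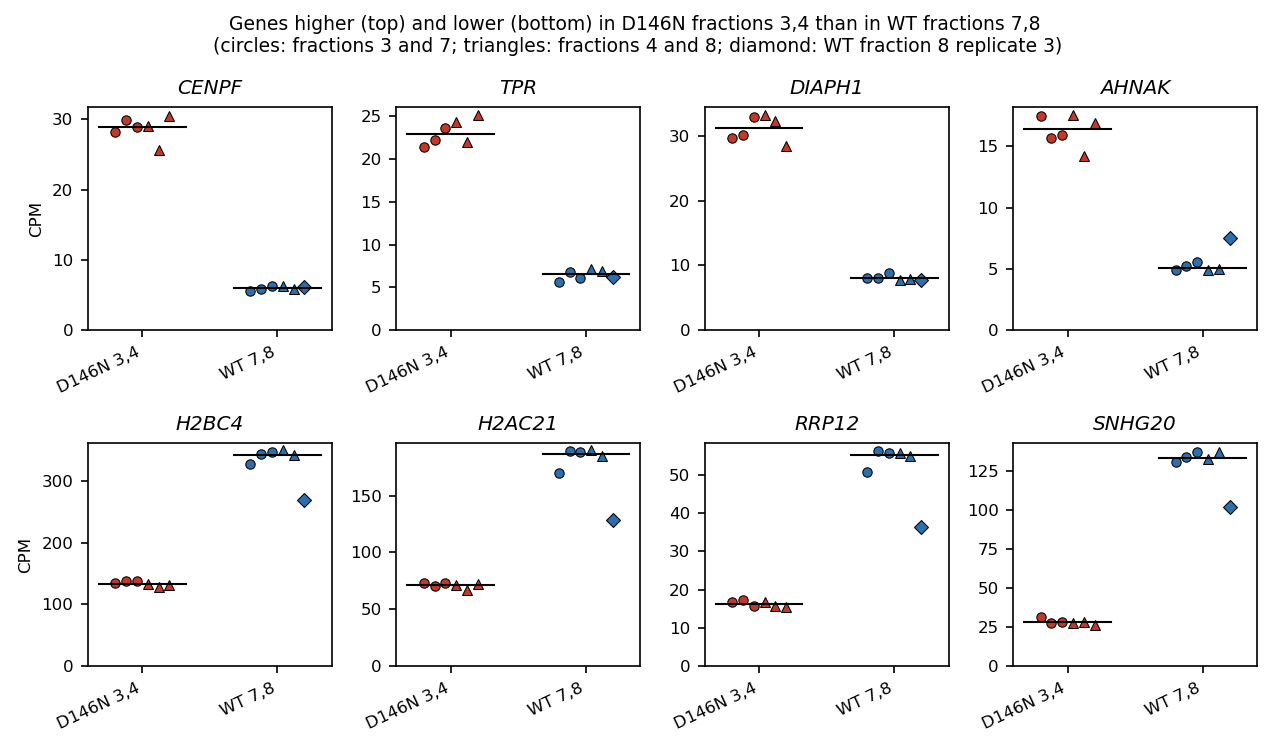
CPM (linear axis from 0) of 8 genes in the 6 libraries of D146N fractions 3,4 and the 6 of WT fractions 7,8, with 1 point per library and a line at each median. CENPF, TPR, DIAPH1 and AHNAK are higher and H2BC4, H2AC21, RRP12 and SNHG20 lower in every D146N library, and WT fraction 8 replicate 3 (diamond) lies below the other WT libraries in the 4 lower genes.

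Replication dependent histone mRNAs, which end in a stem-loop in place of a poly(A) tail and are made in S phase, were 9 of the 12 lower genes taken by size, after 3 genes with larger falls that are described below. H2BC4 (chr6:26113170-26123926) had 128 to 139 CPM (median 134) in D146N fractions 3,4 and 269 to 351 CPM (median 343) in WT fractions 7,8. It fell by 1.23 on the log2 scale (SE 0.09, adjusted p 5.22e-13). H2AC21 had 66.5 to 73.1 CPM (median 71.7) in D146N fractions 3,4 and 129 to 190 CPM (median 186) in WT fractions 7,8, and fell by 1.23 (SE 0.11, adjusted p 1.44e-09). H2BC11 had 102 to 118 CPM (median 117) in D146N fractions 3,4 and 198 to 287 CPM (median 275) in WT fractions 7,8, and fell by 1.14 (SE 0.10, adjusted p 2.49e-10). In each of these genes WT fraction 8 replicate 3 was the lowest WT library and still above every D146N library. H2BC18, H2BC7, H2AC17, H2BC5, H2BC26 and H2AC25 passed the same rule with log2 fold changes of -1.20 to -1.15. Without WT fraction 8 replicate 3, H2BC4 stood at -1.34 and H2AC21 at -1.37.

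Over the whole histone list, 46 of 58 tested genes fell (all genes 12.1%) and 1 rose (all genes 17.1%), with a median of -0.83. The median was -0.91 with library totals, and without WT fraction 8 replicate 3 it was -0.93, with 50 lower and 1 higher. The core histones differed from the linker histones in their counts. All 16 H2A genes tested fell (median -0.97), as did 13 of 14 H2B genes (median -1.15), 8 of 12 H3 genes (median -0.90) and 9 of 11 H4 genes (median -0.50). None of 5 H1 genes fell, and H1-4, named as the only member that rose, had 0.18 (adjusted p 0.0205). H1-1 had a larger value, 0.89, and did not pass. The families were not tested against each other. Histone genes are near copies of each other, so the authors' counting could split reads among them. As a class they took 0.813% to 0.861% (median 0.846%) of counts in D146N fractions 3,4 and 1.32% to 1.65% (median 1.61%) in WT fractions 7,8, with no overlap.

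The regions before the starts of histone genes carry shared elements, among them the octamer that OCT1 binds in H2B genes. In the 250 bases upstream of the start (RefSeq, GRCh38.p14), the octamer ATTTGCAT was found on either strand in 26 of 63 windows of the list (41.3%), against 1.66% of all 27305 windows. CCAAT was found on either strand in 53 windows (84.1%), against 33.0% of all windows, and TATAAA in the transcribed direction in 37 (58.7%), against 7.17%. No 2 of these motifs overlap in the printed windows, and the window of H2BC4 holds no TATAAA. The octamer was in 14 of 18 H2B windows, 11 of 16 H2A windows, 1 of 11 H3 windows and in none of the 13 H4 windows. Of 21 tested genes with the octamer 19 fell, with a median of -1.01, and of 32 without it 24 fell, with a median of -0.78. This split follows the families and is a description. Windows of 3 of the named genes are shown because these genes passed the rule together, with capitals for the octamer, CCAAT and TATAAA, including ATGCAAAT and ATTGG, the octamer and CCAAT as read on the other strand. H2BC4 is chr6:26123927-26124176, H2BC11 is chr6:27132796-27133045 and H2AC21 is chr1:149887966-149888215, all on the minus strand:
H2BC4: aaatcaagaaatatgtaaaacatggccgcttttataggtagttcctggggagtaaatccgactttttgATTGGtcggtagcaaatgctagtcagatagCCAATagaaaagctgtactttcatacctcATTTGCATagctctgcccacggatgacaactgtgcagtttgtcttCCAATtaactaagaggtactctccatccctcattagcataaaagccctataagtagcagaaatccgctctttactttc
H2BC11: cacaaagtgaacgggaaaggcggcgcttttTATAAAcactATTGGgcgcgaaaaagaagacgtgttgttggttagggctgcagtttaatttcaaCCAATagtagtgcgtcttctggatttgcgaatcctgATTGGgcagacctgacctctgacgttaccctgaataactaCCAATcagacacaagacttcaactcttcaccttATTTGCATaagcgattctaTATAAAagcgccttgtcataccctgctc
H2AC21: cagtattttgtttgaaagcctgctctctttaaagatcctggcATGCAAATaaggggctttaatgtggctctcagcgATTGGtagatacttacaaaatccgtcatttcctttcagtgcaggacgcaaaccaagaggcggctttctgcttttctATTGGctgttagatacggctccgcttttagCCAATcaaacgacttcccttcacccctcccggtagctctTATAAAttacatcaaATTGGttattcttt

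The 3 other genes among the 12 lower ones are not histones. SNHG20 (chr17:77088643-77094986), a small nucleolar RNA host gene, had 26.4 to 31.3 CPM (median 27.9) in D146N fractions 3,4 and 102 to 137 CPM (median 133) in WT fractions 7,8 (log2 fold change -2.12). Its span holds SCARNA16, whose levels are given above, so the SNHG20 count is not separate from that small RNA and its fold change is a description. RRP12 (chr10:97356357-97401370), a ribosome biogenesis factor, had 15.3 to 17.4 CPM (median 16.2) in D146N fractions 3,4 and 36.3 to 56.2 CPM (median 55.2) in WT fractions 7,8 (-1.59, adjusted p 4.71e-08). The span of RRP12 holds the ribosomal protein pseudogene RPL34P20, and reads of the 2 may not be told apart. COPB2-DT, a divergent transcript next to COPB2, had medians of 8.67 CPM in D146N fractions 3,4 and 23.1 CPM in WT fractions 7,8 (-1.32, adjusted p 8.58e-07).

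Short mRNAs of the cytosolic ribosome were mostly lower. Of 47 large subunit protein genes tested, 26 fell (all genes 12.1%) and 1 rose (all genes 17.1%), with a median of -0.25. Of 32 small subunit genes 19 fell and none rose (median -0.30). Fewer lay apart with no overlap after TMM scaling (all genes 4.82% lower and 7.79% higher). These were 4 lower and 2 higher in the large subunit and 5 lower and 1 higher in the small subunit. Without WT fraction 8 replicate 3, 35 fell and 7 rose in the large subunit and 28 fell and 1 rose in the small subunit. RPL39 had 993 to 1104 CPM (median 1052) in D146N fractions 3,4 and 1573 to 2504 CPM (median 2377) in WT fractions 7,8 (-1.02, adjusted p 2.74e-08). RPL37A had medians of 2256 CPM in D146N fractions 3,4 and 4003 CPM in WT fractions 7,8 (-0.72), and RPS14 had medians of 1809 CPM in D146N fractions 3,4 and 3078 CPM in WT fractions 7,8 (-0.65). These 3 do not overlap between pools in CPM, but they do after TMM scaling, through WT fraction 8 replicate 3. The one large subunit gene that rose was RPL4, at medians of 64.9 CPM in D146N fractions 3,4 and 41.0 CPM in WT fractions 7,8 (0.58, adjusted p 2.52e-08), with WT fraction 8 replicate 3 at 79.8 CPM. Ribosomal protein genes have many processed pseudogenes, which can share their reads. As a class the large subunit mRNAs took a median of 5.29% of counts in D146N fractions 3,4 and 7.06% in WT fractions 7,8, and the small subunit mRNAs took a median of 4.31% in D146N fractions 3,4 and 5.59% in WT fractions 7,8.

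Nuclear genes for mitochondrial proteins also fell more often than they rose. Of 78 mitochondrial ribosomal protein genes, 30 fell (all genes 12.1%) and 9 rose (all genes 17.1%), with a median of -0.22, or -0.14 without WT fraction 8 replicate 3. MRPS7 had 27.98 to 34.6 CPM (median 32.9) in D146N fractions 3,4 and 54.6 to 59.0 CPM (median 56.4) in WT fractions 7,8 (-0.74, adjusted p 1.85e-09). Of 37 nuclear complex I subunits, 23 fell and 2 rose (median -0.38), and of 41 nuclear subunits of complexes II to V, 24 fell and 5 rose (median -0.44). For complexes II to V, 27 fell and 8 rose without WT fraction 8 replicate 3, with a median of -0.29. NDUFV3 of complex I fell by 0.78, with medians of 19.6 CPM in D146N fractions 3,4 and 34.8 CPM in WT fractions 7,8. NDUFA4, a small respiratory chain subunit, had medians of 74.8 CPM in D146N fractions 3,4 and 146.2 CPM in WT fractions 7,8 (-0.82, adjusted p 2.42e-06), and UQCR10 of complex III and COX7A2 of complex IV fell by 0.82 and 0.80. The ATP synthase subunits ATP5F1A and ATP5F1B went the other way, whereas ATP5F1C stood at -0.46, ATP5F1E at -0.92 and ATP5F1D at 0.17. ATP5F1A rose by 0.71, with medians of 9.31 CPM in D146N fractions 3,4 and 5.57 CPM in WT fractions 7,8, and ATP5F1B rose by 0.62. A like contrast stood among the snRNP proteins, where 12 of 19 fell and 1 rose (median -0.32). SNRPD2, a short Sm core protein, had medians of 155 CPM in D146N fractions 3,4 and 308 CPM in WT fractions 7,8 (-0.82, adjusted p 3.55e-07), whereas the U1 protein gene SNRNP70 rose, with medians of 5.38 CPM in D146N fractions 3,4 and 2.88 CPM in WT fractions 7,8 (ratio of mean CPM 1.85, adjusted p 2.88e-11).

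The mitochondrially encoded mRNAs rose as nuclear partner genes fell, but the outcome differed by transcript. Of 13 tested, 10 rose, none fell and 3 did not pass, with a median of 0.83 (0.70 with library totals). MT-ND1, of complex I, had 744 to 809 CPM (median 802) in D146N fractions 3,4 and 220 to 1226 CPM (median 244) in WT fractions 7,8. The value of 1226 CPM was that of WT fraction 8 replicate 3, so the pools overlapped. Its log2 fold change was 1.31 (SE 0.22, adjusted p 0.000192) with that library and 1.74 without it. MT-ATP8, of the ATP synthase, had 59.6 to 68.3 CPM (median 65.0) in D146N fractions 3,4 and 11.4 to 117 CPM (median 13.3) in WT fractions 7,8, the highest again WT fraction 8 replicate 3. It stood at 1.62 (SE 0.33, adjusted p 0.00102) with that library and at 2.35 without it. MT-ATP6 (1.46), MT-ND4L (1.43), MT-ND2 (1.28), MT-ND5 (1.06), MT-CYB (0.83), MT-ND4 (0.80), MT-ND3 (0.71) and MT-CO2 (0.47) also rose. Pools of MT-ATP6, MT-ND5, MT-CYB and MT-ND4 overlapped in CPM through WT fraction 8 replicate 3 and not after TMM scaling.

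The 3 mitochondrial mRNAs that did not pass were MT-CO1, MT-CO3 and MT-ND6. MT-CO1, of complex IV, had 1884 to 2056 CPM (median 1994) in D146N fractions 3,4 and 1926 to 3323 CPM (median 2100) in WT fractions 7,8 (-0.07, adjusted p 0.451). MT-CO3 stood at -0.04 (adjusted p 0.759) and MT-ND6 at 0.12 (adjusted p 0.525). Without WT fraction 8 replicate 3, 12 of the 13 rose and 1 fell, with a median of 0.96, and MT-CO1 was the one that fell (-0.05, adjusted p 0.0227). Mitochondrial mRNAs together took 1.04% to 1.12% (median 1.10%) of counts in D146N fractions 3,4 and 0.719% to 1.85% (median 0.802%) in WT fractions 7,8, where WT fraction 8 replicate 3 had the 1.85%. Their share was larger in the other fractions, at medians of 3.74% in D146N fractions 7,8 and 3.44% in WT fractions 3,4.

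Mitochondrial transfer RNAs differed widely between the pools, and they are described without a test. MT-TW, for tryptophan, had 0.0203 to 0.196 CPM (median 0.116) in D146N fractions 3,4 and 10.03 to 14.8 CPM (median 12.1) in WT fractions 7,8, with 17.8 reads in all in the D146N pool and 2336 in the WT pool. The ratio of the means was 0.00920, and the median was 0.340 CPM in D146N fractions 7,8 and 0.478 CPM in WT fractions 3,4, so only WT fractions 7,8 were high among the 4 pools. MT-TT, for threonine, had 0.487 to 0.741 CPM (median 0.635) in D146N fractions 3,4 and 6.57 to 8.12 CPM (median 7.47) in WT fractions 7,8, a ratio of 0.0849. MT-TA, for alanine, had a ratio of 0.0599 and MT-TP, for proline, of 0.128, without overlap in either. MT-TK, for lysine, lay the other way, with 6.78 to 7.40 CPM (median 7.13) in D146N fractions 3,4 and 1.37 to 6.33 CPM (median 1.61) in WT fractions 7,8. The highest WT value of MT-TK was WT fraction 8 replicate 3, and the ratio of means was 2.92 with it and 4.29 without it. MT-TV, for valine, also lay that way, with 0.0420 to 0.124 CPM (median 0.0750) in D146N fractions 3,4 and 0 CPM in 5 of the 6 WT libraries and 0.0152 CPM in WT fraction 8 replicate 3. It rested on 12 reads in all in the D146N pool and 0.500 in the WT pool, too few for a fold to be read from it. Of 23 mitochondrial ribosomal and transfer RNAs, 5 were higher (all genes 7.79%) and 6 lower (all genes 4.82%) in D146N fractions 3,4 with no overlap after TMM scaling.

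**Figure D3:**
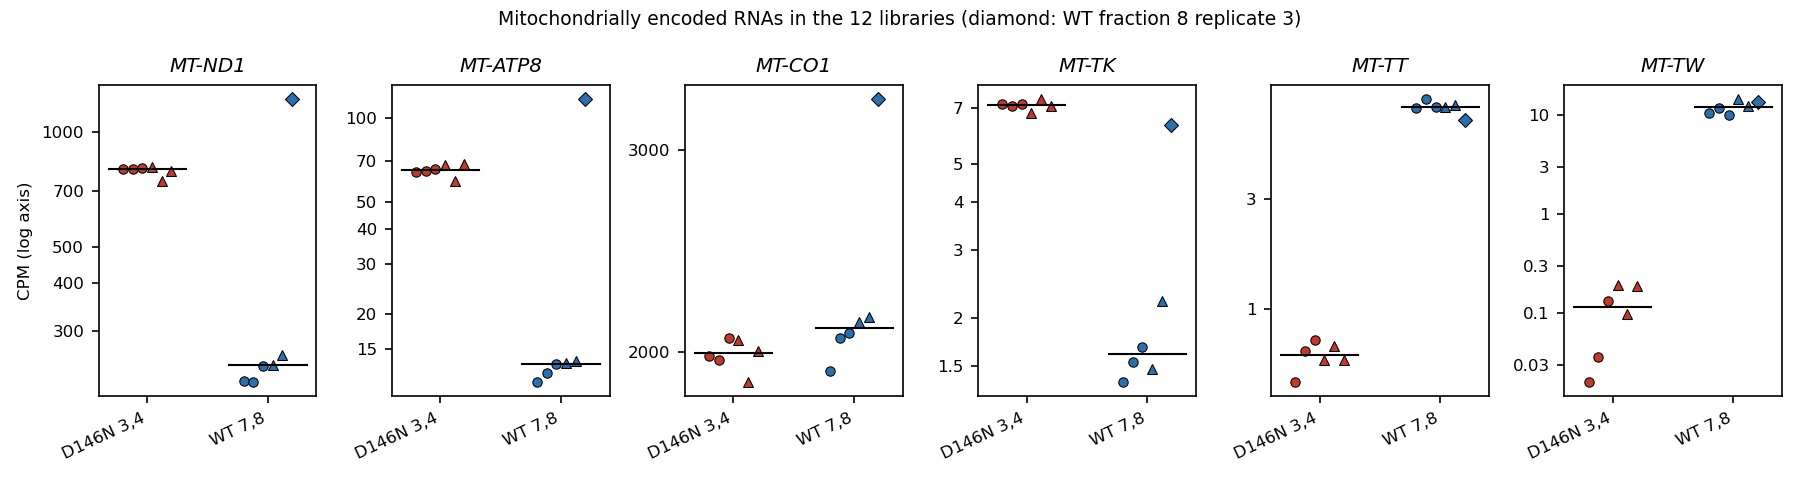
CPM (log axis, scaled for each panel) of 3 mitochondrial mRNAs and 3 mitochondrial transfer RNAs in the 12 libraries, with 1 point per library and a line at each median. MT-ND1 and MT-ATP8 are higher in D146N 3,4 than in 5 of the 6 WT 7,8 libraries and lower than in WT fraction 8 replicate 3 (diamond), MT-CO1 medians are 1994 CPM in D146N 3,4 and 2100 CPM in WT 7,8, and MT-TT and MT-TW are lower in every D146N library.

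Lists of RNA-binding, cytoskeletal and glycolytic genes rose more often than the 17.1% of all genes. Of 19 hnRNP protein genes, 13 rose and 1 fell (median 0.34). HNRNPUL2 had medians of 2.53 CPM in D146N fractions 3,4 and 1.44 CPM in WT fractions 7,8 (1.01), and HNRNPU, a scaffold attachment factor, had medians of 52.8 CPM in D146N fractions 3,4 and 42.3 CPM in WT fractions 7,8 (0.48). Of 34 genes for actin nucleators and cytoskeletal scaffolds, 17 rose and 1 fell (median 0.34). MYH10, non-muscle myosin IIB, had 15.7 to 18.1 CPM (median 17.7) in D146N fractions 3,4 and 7.22 to 9.55 CPM (median 8.34) in WT fractions 7,8 (1.14, adjusted p 1.24e-15). Of 18 genes of glycolysis, 12 rose and none fell (median 0.35), among them the enolase ENO1 at 0.62. Without WT fraction 8 replicate 3, 14 rose and none fell (median 0.50). The list summed to 1120 CPM in that library, at most 157.2 CPM in the other WT libraries and 212.5 to 224.5 CPM in D146N fractions 3,4. ENO1 had medians of 24.7 CPM in D146N fractions 3,4 and 16.3 CPM in WT fractions 7,8, with no overlap.

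Genes of DNA replication and of mitosis followed. Of 32 DNA replication factors, 20 rose and 3 fell (median 0.31). MCM7, of the replicative helicase, had 10.1 to 12.0 CPM (median 11.8) in D146N fractions 3,4 and 5.32 to 9.50 CPM (median 6.61) in WT fractions 7,8 (0.86, adjusted p 5.43e-13). FEN1, the flap endonuclease, rose by 1.14, and RRM1, of ribonucleotide reductase, by 0.79. Of 24 G2/M regulators, 11 rose and 4 fell (median 0.20), with the proliferation marker MKI67 at 1.26 and topoisomerase TOP2A at 0.87. Of 21 CENP protein genes, 5 rose (all genes 17.1%) and 3 fell (all genes 12.1%), or 4 rose and 5 fell without WT fraction 8 replicate 3. CENPE, a kinetochore motor, rose by 1.72. CENPE had 8.79 to 12.2 CPM (median 10.8) in D146N fractions 3,4 and 2.81 to 4.00 CPM (median 3.39) in WT fractions 7,8.

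The anaphase promoting complex held the largest tested fold change of the genes named here. ANAPC2 (chr9:137174784-137188560), its cullin subunit, had 7.97 to 9.71 CPM (median 9.48) in D146N fractions 3,4 and 0.821 to 1.89 CPM (median 1.18) in WT fractions 7,8. The log2 fold change was 2.94 (SE 0.10, adjusted p 3.22e-22), and WT fraction 8 replicate 3 was the highest WT library. Of 18 members tested, ANAPC2 included, 5 rose (all genes 17.1%) and 6 fell (all genes 12.1%), or 5 rose and 4 fell without WT fraction 8 replicate 3. The median was 0.05 and turned to -0.06 with library totals. ANAPC16, a small subunit, fell by 0.58, with medians of 33.5 CPM in D146N fractions 3,4 and 48.5 CPM in WT fractions 7,8.

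Chaperones and stress genes rose in part. Of 16 heat shock chaperone genes, 10 rose (all genes 17.1%) and 2 fell (all genes 12.1%), with a median of 0.32. HSP90AB1 had 19.2 to 21.9 CPM (median 20.7) in D146N fractions 3,4 and 8.84 to 13.9 CPM (median 9.99) in WT fractions 7,8 (1.09, adjusted p 9.27e-17), and HSP90AA1, the inducible form, rose by 0.79. Of 25 genes of endoplasmic reticulum chaperones and translocation, 13 rose and 2 fell (median 0.19), with the channel gene SEC61A1 at 0.83 and the chaperone HSPA5 at 0.79. Of 23 integrated stress response genes, 15 rose and 1 fell (median 0.27). The amino acid genes PHGDH (0.73), SLC7A11 (0.80) and ASNS (0.61) were among those that rose, and the only one that fell was DDIT3 (-0.39), named for that reason. Of 23 cholesterol genes 6 rose and 1 fell, with the desaturase SCD at 0.63. Of 35 proteasome genes 8 rose and 5 fell, near the shares of all genes, or 12 rose and 3 fell without WT fraction 8 replicate 3. The regulatory particle gene PSMD2 stood at 0.74.

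RNA-binding and RNA-decay genes gave mixed counts. Of 21 genes for factors that act on circular RNAs, 13 rose (all genes 17.1%) and 2 fell (all genes 12.1%), with a median of 0.32. Without WT fraction 8 replicate 3, 11 rose and 2 fell. DHX9, an RNA helicase, had medians of 12.3 CPM in D146N fractions 3,4 and 7.76 CPM in WT fractions 7,8 (0.64), and the RNA editing enzyme ADAR had medians of 12.0 CPM in D146N fractions 3,4 and 8.46 CPM in WT fractions 7,8 (0.55). Of 27 host genes of known circular RNAs, 14 fell and 4 rose (median -0.20). CAMSAP1, a microtubule minus-end protein, had medians of 26.8 CPM in D146N fractions 3,4 and 44.2 CPM in WT fractions 7,8 (-0.61), and UBAP2 fell by 0.61 as well. Counts of a host gene are not counts of its circular RNA, which was not analysed here. Of 27 genes of decapping, deadenylation and 5′ decay, 9 rose and 4 fell, with the helicase DDX6 at 0.59 and the deadenylase PARN at -0.71. Of 25 elongation factor and related mRNAs, 9 rose and 2 fell, or 13 and 2 without WT fraction 8 replicate 3. EEF1A1 (0.74), EEF2 (0.70) and EIF3A (0.97) were among those that rose.

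Protein partners of the abundant small RNAs gave small counts. Of 11 RNase P and MRP protein genes, 2 fell (all genes 12.1%) and none rose (all genes 17.1%), and 1 fell without WT fraction 8 replicate 3. Of 7 genes for 7SK partners, 3 rose and none fell, with the cyclin CCNT1 at 0.68 and the capping enzyme MEPCE at 0.91. Without WT fraction 8 replicate 3, 2 rose. MEPCE was rare, at 1.59 to 2.82 CPM in D146N fractions 3,4 and 0.808 to 1.96 CPM in WT fractions 7,8. Its highest WT value was that of WT fraction 8 replicate 3, so the pools overlapped in CPM. Of 6 signal recognition particle protein genes, SRP54 was among 2 that rose (0.72) and SRP19 was the 1 that fell (-0.50). Of 5 genes for Y and vault RNA proteins, 3 rose, or 2 without WT fraction 8 replicate 3. RO60 had medians of 9.93 CPM in D146N fractions 3,4 and 7.13 CPM in WT fractions 7,8 (0.56).

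Among long noncoding RNAs, 5 of 18 rose (all genes 17.1%) and 6 fell (all genes 12.1%). MALAT1, a nuclear speckle RNA, had 153 to 172 CPM (median 160) in D146N fractions 3,4 and 81.0 to 108 CPM (median 90.1) in WT fractions 7,8 (0.91, adjusted p 1.87e-13). NEAT1, the paraspeckle scaffold, rose by 0.74, and PVT1, the neighbour of MYC, fell by 0.56. Among small nucleolar RNA host transcripts, 18 of 29 fell and 1 rose (median -0.33). SNHG22 was the one that rose, with medians of 30.0 CPM in D146N fractions 3,4 and 14.8 CPM in WT fractions 7,8 (0.92) and WT fraction 8 replicate 3 at 31.8 CPM. TAF1D, which hosts several small nucleolar RNAs, had medians of 108 CPM in D146N fractions 3,4 and 154 CPM in WT fractions 7,8 (-0.47). Host gene counts can include reads of the small RNAs inside them.

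**Figure D4:**
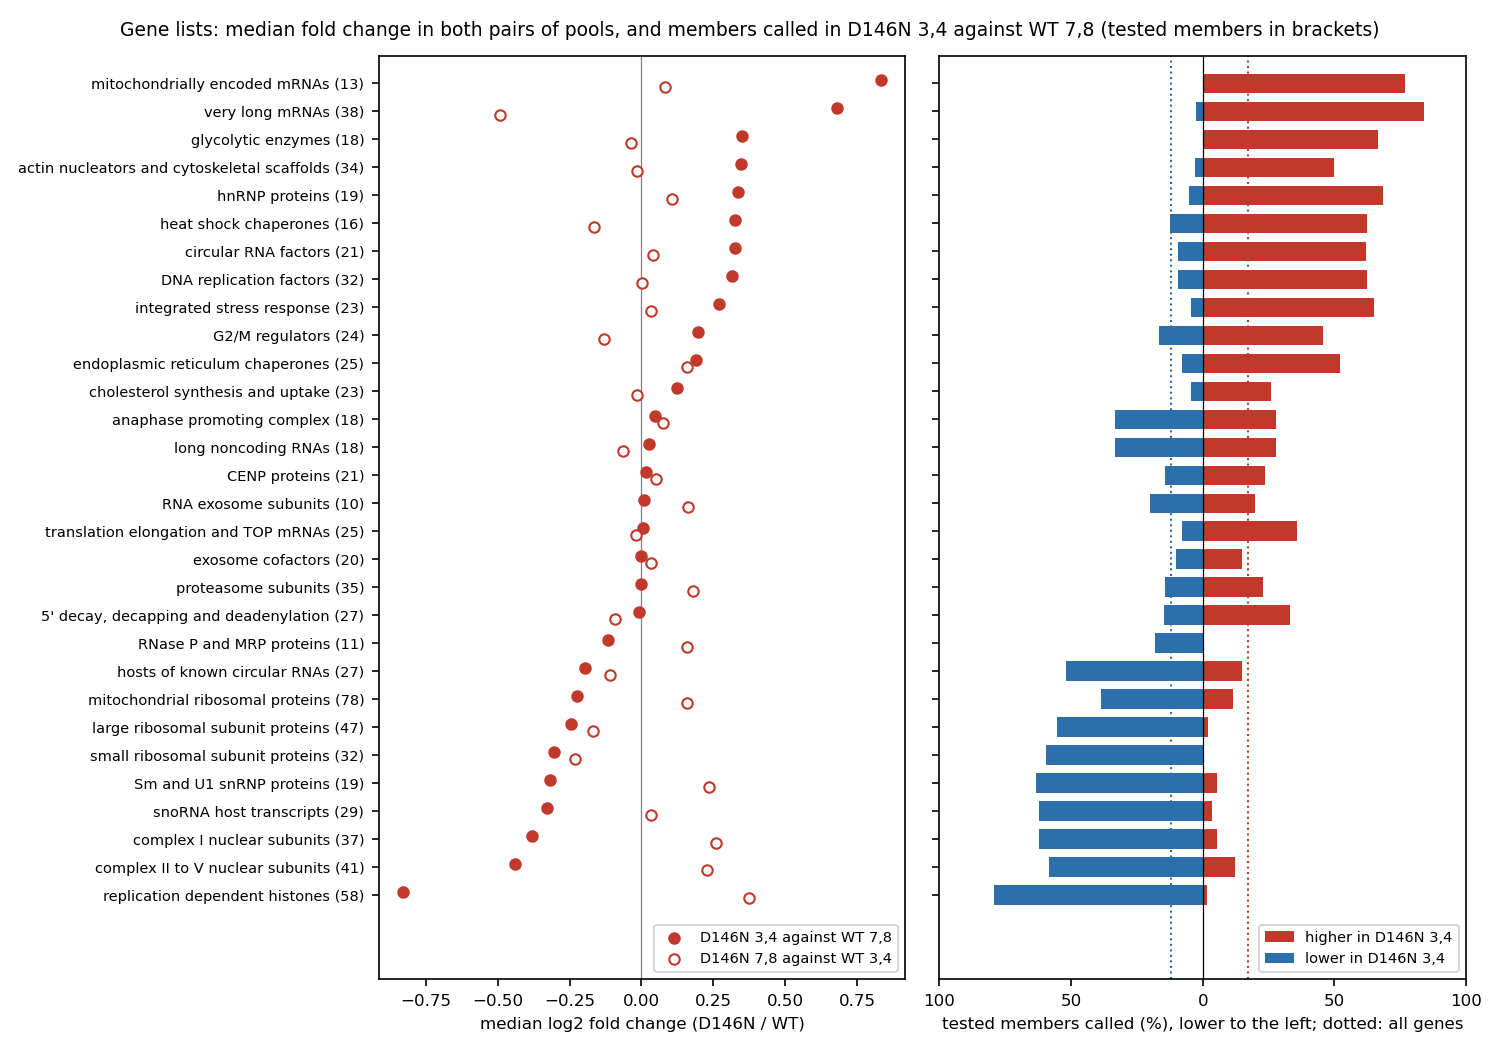
Left, median log2 fold change of each gene list in D146N 3,4 against WT 7,8 (filled) and in D146N 7,8 against WT 3,4 (open). Right, percent of tested members called higher (red) and lower (blue) in D146N 3,4 against WT 7,8, with dotted lines at the 17.1% and 12.1% of all genes. Very long mRNAs (0.68 and -0.49) and histones (-0.83 and 0.38) lie on opposite sides of 0 in the 2 pairs of pools.

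The other 12 libraries offer a second D146N against WT contrast, D146N fractions 7,8 against WT fractions 3,4, which shares no library with the first. There 3275 genes were called (17.3%), of which 1305 were higher (6.90%) and 1970 lower (10.4%), with 3183 higher and 1001 lower on library totals. Of genes called in both contrasts, 672 had the same direction and 1096 the opposite one, which is 12.2% and 19.8% of the first list and 20.5% and 33.5% of the second. The difference between the 2 contrasts, tested for all genes in the same fit, was called in 4607 genes (24.4%). CENPF stood at 2.35 and -1.22 in the 2 contrasts, and the difference was 3.56 (adjusted p 6.22e-25). The very long mRNAs as a list had 32 members higher and 1 lower in the first contrast and none higher and 33 lower in the second (median -0.49). Histones had 1 higher and 46 lower in the first and 44 higher and none lower in the second (median 0.38). H2BC4 stood at -1.23 and 0.38, at medians of 544 CPM in D146N fractions 7,8 and 381 CPM in WT fractions 3,4.

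Up to 8 genes each way were taken that kept their direction in both contrasts with no overlap in either after TMM scaling. In the second contrast alone, 920 genes were higher (4.87%) and 1485 lower (7.85%) with no overlap between its pools. Among those that rose in both, PRRC2A, a large RNA-binding protein, had 16.5 to 18.4 CPM (median 16.9) in D146N fractions 3,4 and 9.62 to 15.5 CPM (median 10.4) in WT fractions 7,8 (0.73, adjusted p 2.43e-12). In the other pools it had medians of 273 CPM in D146N fractions 7,8 and 180 CPM in WT fractions 3,4 (0.46, adjusted p 3.33e-08). The span of PRRC2A holds SNORA38. KHSRP, which binds AU-rich elements, stood at 0.79 and 0.36 in the 2 contrasts, MT-ND5 at 1.06 and 0.44 and MT-CYB at 0.83 and 0.37. MARCKSL1, an actin-binding protein, stood at 0.40 and 0.35, the deubiquitinase USP22 at 0.52 and 0.27, and the zinc finger gene ZNF703 at 0.52 and 0.26. In USP22, ZNF703, MARCKSL1, MT-ND5 and MT-CYB, WT fraction 8 replicate 3 lay within or above the D146N range in CPM, and the lack of overlap holds after TMM scaling.

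Among those that fell in both, ZNF124, a zinc finger gene, had 9.91 to 12.8 CPM (median 10.4) in D146N fractions 3,4 and 15.4 to 27.8 CPM (median 16.2) in WT fractions 7,8 (-0.61, adjusted p 2.07e-07). In the other pools ZNF124 had medians of 18.3 CPM in D146N fractions 7,8 and 25.5 CPM in WT fractions 3,4 (-0.65, adjusted p 9.99e-08). FIRRE, a nuclear long noncoding RNA, stood at -0.56 in both contrasts and at -0.39 in the first without WT fraction 8 replicate 3. DNA2, a helicase and nuclease of DNA replication, stood at -0.67 and -0.51, VWA8, a mitochondrial protein, at -0.56 and -0.47, and DNAH14, an axonemal dynein, at -0.52 and -0.45. The nuclear pore gene NUP54 stood at -0.53 and -0.39 and the host gene SNHG19 at -0.86 and -0.44. The span of SNHG19 holds SNORD60, so its count may hold reads of both genes. Ribosomal protein lists also kept their direction in the second contrast. There 19 of 47 large subunit genes and 17 of 32 small subunit genes were lower (all genes 10.4%) and none higher (all genes 6.90%). With library totals, though, the second medians were near 0 (-0.02 and -0.08).

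**Figure D5:**
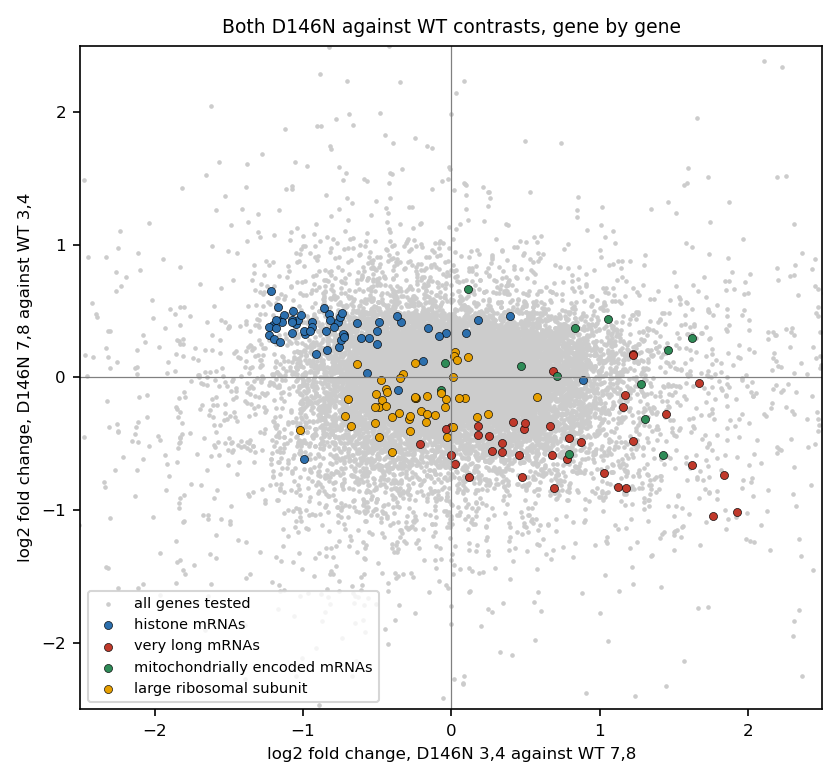
Log2 fold change of every gene tested in D146N 3,4 against WT 7,8 (x) and in D146N 7,8 against WT 3,4 (y), with 1 point per gene and 4 lists in colour; 327 genes lie outside the axes. Histone mRNAs fall at the upper left (medians -0.83 and 0.38), very long mRNAs at the lower right (0.68 and -0.49) and large ribosomal subunit mRNAs at the lower left (-0.25 and -0.17).

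Gene span, the annotated genomic length, was followed in bins as a description. In D146N fractions 3,4 against WT fractions 7,8, of 262 genes of up to 2 kb 14 rose (all genes 17.1%) and 95 fell (all genes 12.1%). The median log2 fold change was -0.29 there, and -0.21 without the histones. It was -0.05 from 2 to 5 kb, 0.11 from 5 to 20 kb, 0.15 from 20 to 50 kb, 0.12 from 50 to 100 kb and 0.02 above 100 kb. In D146N fractions 7,8 against WT fractions 3,4 the medians were 0.25, 0.14, 0.09, 0.03, -0.04 and -0.10 in the same bins. With TMM scaling the 2 contrasts thus differed in sign in the bins up to 5 kb and above 50 kb. Above 20 kb the medians of both were lower in each longer bin. Switching to library totals shifted the second contrast upward, with a gene-wide median of 0.155 in place of 0.008. Bin medians of the second contrast were not computed on that scale. Its negative medians above 50 kb were smaller in size than this shift, so their sign may not hold there. In the first contrast the median from 2 to 5 kb turned to 0.06 without WT fraction 8 replicate 3, and with library totals that above 100 kb turned to -0.08 and that from 5 to 20 kb was -0.0032. Span includes introns, and transcript length was not used.

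Markers of the cell line were present, at a summed 68.9 to 78.2 CPM in D146N fractions 3,4 and 65.25 to 102.8 CPM in WT fractions 7,8. The WT maximum was 71.05 CPM without WT fraction 8 replicate 3. Of 14 markers of 293T and embryonic kidney cells, all were tested. Of these, 2 rose (all genes 17.1%) and 1 fell (all genes 12.1%), or 2 and 2 without WT fraction 8 replicate 3. IGF2BP1 had medians of 12.7 CPM in D146N fractions 3,4 and 8.89 CPM in WT fractions 7,8 (0.56), VIM rose by 0.42 and EYA1 fell by 0.37. None of 5 blood cell markers tested changed, and of 5 fibroblast markers 2 rose, or 1 without WT fraction 8 replicate 3. Both lists were near 0: blood cell markers summed to 1.06 to 1.56 CPM in D146N fractions 3,4 and 1.19 to 2.03 CPM in WT fractions 7,8, with 3 of 10 at 0 in all 12 libraries. Fibroblast markers summed to 0.655 to 1.39 CPM in D146N fractions 3,4 and 0.472 to 0.909 CPM in WT fractions 7,8, with 2 of 10 at 0. Of 15 liver secreted protein genes, 5 fell and none rose (median -0.71), and without WT fraction 8 replicate 3 4 fell (median -0.36). AFP, the fetal liver protein, had 3.96 to 5.74 CPM (median 4.63) in D146N fractions 3,4 and 6.46 to 27.1 CPM (median 7.48) in WT fractions 7,8 (-0.88, adjusted p 0.00351), and ALB stood at -0.68. The highest WT value of both was WT fraction 8 replicate 3, without which they stood at -0.54 and -0.38. Summed over the list, liver genes had 29.3 to 34.6 CPM in D146N fractions 3,4 and 33.3 to 134.5 CPM in WT fractions 7,8, or at most 40.4 CPM without WT fraction 8 replicate 3. One of the 18 listed was at 0 in all 12 libraries. In the other fractions the liver list summed to 571.7 to 631.1 CPM in D146N fractions 7,8 and 671.2 to 713.3 CPM in WT fractions 3,4. The 293T and embryonic kidney list summed there to 571.0 to 607.9 CPM and 558.7 to 584.0 CPM, so the 2 lists were of like level. Their part in the other results was not tested.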

How the data were processed

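Expected counts per gene were deposited by the authors for 61853 gene rows, not normalized; 73.28% of nonzero values were whole within 0.005. Per the submitters' processing notes, the tools were featureCounts 1.5.1, HISAT2 2.1.0, Bowtie2 2.3.5 and SAMtools and the build was hg38, with no roles or options given. Values were rounded and fitted with edgeR 4.0.16 (R 4.3.3; TMM, filterByExpr, robust quasi-likelihood, 8 group means of 24 libraries), with Benjamini-Hochberg adjustment over 18907 genes. DESeq2 1.42.0 and limma 3.58.1 were alternatives. The biological coefficient of variation was 13.8%, and library totals were 21.2 to 33.0 M counts. Reads without molecular identifiers are not independent molecules, so depth gives counting precision only.

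The pools, the gene lists and their members were chosen with earlier results of these data known. Named genes, after DIS3, passed 0.05 on the adjusted p, averaged 10 CPM or more, and had a symbol that is no clone or pseudogene name, no small noncoding RNA class and no overlap of the 2 pools in TMM-scaled CPM, and the 12 with the largest fold change each way were taken. For each list up to 4 members with the smallest p could be named, with any exosome or small RNA gene. Small RNAs and mitochondrial transfer RNAs stayed in the fit, but no test of them is reported, since composition chose the pools. Replicate numbers did not pair libraries: residuals of same-numbered libraries correlated at -0.02 to 0.03 over 18 pairs. The design assumed whole counts. Results of a few genes that met these rules are not reported here.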

Additional observations from a re-analysis of the deposited data

Results flagged for a closer look

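In 106 pools of 6 values tested, 41 times the highest or lowest library lay far from the other 5, where chance flags about 1 in 20 groups. WT fraction 8 replicate 3 was that library 34 times. Its shares of counts were 11.48% for RPPH1, 3.451% for RN7SK, 3.85% for RMRP, 0.1157% for SCARNA2, 6.583% for small ribosomal subunit mRNAs, 1.32% for histone mRNAs, 1.852% for mitochondrially encoded mRNAs, 0.1173% for mitochondrial ribosomal protein mRNAs and 0.044% for very long mRNAs. Among genes higher in D146N fractions 3,4 it stood apart in AHNAK (7.502 CPM), AKAP12 (32.04), MT-ATP6 (723.7), SPTAN1 (8.841), MT-ND4L (47.37) and MAP1B (8.26). It was the lowest WT library in SNHG20 (101.9 CPM), RRP12 (36.33), COPB2-DT (17.63), H2AC21 (128.8), H2BC4 (269.2), H2BC18 (447.2), H2BC7 (37.4), H2AC17 (115.7), H2BC5 (439.6), H2BC26 (157.7) and H2BC11 (198.3). It was the highest WT library in PRRC2A (15.47 CPM), MT-ND5 (284.4), MT-CYB (510.5), USP22 (13.78), ZNF703 (20.69), ZNF124 (27.8), FIRRE (29.01) and DNAH14 (45.13).

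In D146N fraction 4, replicate 2 was low in large ribosomal subunit mRNAs (4.994% of counts), mitochondrially encoded mRNAs (1.037%), H2BC11 (101.7 CPM) and MT-ND5 (253.9 CPM), and replicate 3 was high in box H/ACA RNAs (0.01827% of counts). In WT fraction 7, replicate 1 was low in large ribosomal subunit mRNAs (6.57% of counts) and replicate 3 was high in DIAPH1 (8.796 CPM).

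The D146N against WT fold change differed between D146N fractions 3,4 against WT fractions 7,8 and D146N fractions 7,8 against WT fractions 3,4 in all 24 genes tested for it, DIS3 and 23 named by size (interaction term in edgeR, adjusted over all genes). Genes named by size in the first contrast are likely to differ from the second. The difference was 0.92 on the log2 scale for DIS3, 3.56 for CENPF, 2.95 for TPR, 2.18 for MAP1B, 2.01 for MT-ND4L, 1.85 for DIAPH1, 1.75 for SPECC1, 1.72 for SPTAN1, 1.71 for AHNAK, 1.69 for AKAP12, 1.55 for CTNNB1 and 1.26 for MT-ATP6. Among lower genes it was -2.14 for SNHG20, -1.57 for RRP12 and -1.18 for COPB2-DT. Among histone genes it was -1.55 for H2AC21, -1.60 for H2BC4, -1.60 for H2BC18, -1.48 for H2BC7, -1.62 for H2AC17, -1.56 for H2BC5, -1.70 for H2BC26, -1.58 for H2AC25 and -1.55 for H2BC11.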

How the results depend on the processing

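Direction was kept by all 131 fold changes of named genes under every alternative run, and 3767 of 3806 values also kept their side of the threshold. The other 39 values, in 14 of these results, no longer passed, 6 of them only where single fractions were compared. The calls of DIS3L2, EXOSC1 and EXOSC8 were each lost under several settings, and those of MT-ND1, MT-CO2 and MT-ATP8 in comparisons with WT fraction 8 alone, which weigh WT fraction 8 replicate 3 more. For D146N fractions 3,4 against WT fractions 7,8, single fractions called fewer genes, with 3 libraries a side: 3240 for 3 against 7 (1932 higher, 1308 lower), 3373 for 3 against 8 (2124 and 1249), 3308 for 4 against 7 (1931 and 1377) and 3479 for 4 against 8 (2149 and 1330). Leaving out a library or a replicate number gave 1469 to 2392 lower genes. The lowest counts came without replicate 1 (1469) and without replicate 2 (1509) of all 4 fractions, which leaves 2 libraries a fraction. For D146N fractions 7,8 against WT fractions 3,4, library totals gave 3183 higher and 1001 lower genes, limma voom 2186 higher, voom with an estimated correlation 4991 in all and 2240 higher, and the 12 libraries fitted alone 2080 higher; the cause was not tested. Sums within a replicate number with the replicate number as a block, added after seeing the data, gave 775 higher there. In the same fit, the replicate block gave 5426 calls for the first contrast (3188 higher, 2238 lower) and 3208 for the second (1274 and 1934), and replicate numbers showed no pairing of the libraries. Leaving out single libraries in the second contrast was also added after seeing the data. Calls of rare mRNAs in the matched pools, such as DIS3L at 2 to 3 CPM, are limited by depth.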
